A study of Mus musculus with 15 samples.

Results

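The mitochondrial ribosomal protein genes were followed in ventricular cardiomyocytes, the contracting muscle cells of the lower heart chambers, of wild-type C57BL/6 mice. They were chosen by name, as every gene of the deposited expression table whose symbol begins with Mrpl or Mrps followed by a digit, and 78 of the table's 9666 genes met that rule. Total RNA was taken with TRIzol and sequenced from 3 groups that carry no allele or treatment: adults of 8 to 12 weeks (7 libraries), postnatal day 1 (P1, 4 libraries) and postnatal day 3 (P3, 4 libraries). The series was set up to find what separates neonatal heart muscle cells, from hearts that can still regenerate, from adult ones. Values are RPKM, reads divided by the length of the gene and by the depth of the library, so levels of different genes are compared per length. A change is the difference between 2 groups in mean log2(RPKM + 0.5). A gene was called higher or lower when its change was at least 1 on that scale with an adjusted p under 0.05 in limma, adjusted by Benjamini-Hochberg over the 9389 genes tested. All 78 members passed the filter for testing, an RPKM of at least 1 in at least 4 libraries. Nothing in the labels says that libraries of a group came from separate animals, and p-values here describe only how these libraries vary, which may be technical.

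Mitochondria carry their own small genome and translate its few messages, all for subunits of the oxidative phosphorylation complexes, on a ribosome of their own. The RNA of this ribosome is made inside the mitochondrion, but each of its proteins is encoded in the nucleus, made on cytosolic ribosomes and imported. The heart is among the tissues richest in mitochondria, and inherited faults in several of these proteins cause cardiomyopathy. Of the 78 members, 51 are proteins of the large subunit, which joins amino acids into a chain, and 26 of the small subunit, which reads the message. The remaining one, Mrps36, carries a ribosomal name but is a component of the 2-oxoglutarate dehydrogenase complex of the citric acid cycle. A counterpart in the bacterial ribosome was assigned to 47 members and none to 30. The 30 include Mrps18b, which is related to a bacterial protein but occupies a place of its own. Of the protein-coding genes with such a symbol in the GENCODE annotation, 78 of 78 were in the table, and they lie on 17 chromosomes.

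Promoters are shown for 4 of the members called in the comparisons below, because the nuclear genes of mitochondrial proteins are known to be served by a few common transcription factors. Mrps6 and Mrps18b, which had the largest changes at P1, are not among them. The sequences are the 60 bases just before the first RefSeq transcription start (build GRCm38.p6, which matches mm10), read 5′ to 3′ on the gene's own strand. Capitals mark the letters CCGGAAGT, a motif of the ETS family to which the respiratory factor GABP belongs.
Mrps22, chr9:98601680-98601739, minus strand: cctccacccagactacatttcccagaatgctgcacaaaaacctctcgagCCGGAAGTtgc
Mrpl20, chr4:155802818-155802877, plus strand: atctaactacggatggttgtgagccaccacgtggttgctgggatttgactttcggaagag
Mrpl42, chr10:95501950-95502009, minus strand: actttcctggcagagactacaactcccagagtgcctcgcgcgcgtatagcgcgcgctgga
Mrpl55, chr11:59202426-59202485, plus strand: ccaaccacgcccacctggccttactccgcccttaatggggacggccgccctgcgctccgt
Mrps22 and Mrpl20 were called higher at P1 than in adult, and Mrpl42 and Mrpl55 were called lower at P3 than in adult. In the Mrps22 window the motif begins 11 bases before the start.

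Windows of 300 bases around the start (250 before, 50 after) were found for 69 of the 78 members and searched on both strands. The ETS and GABP letters CCGGAAGT were in 11 member windows (15.9%), in 9.83% of the windows of all genes in the expression table and in 4.0% of all RefSeq windows. The letters GCATGCGC of NRF-1, a regulator of respiratory genes, were in 8 member windows (11.6%), against 6.32% of the table's and 2.80% of all windows. The letters AAGATGGC of YY1, a factor that binds close to the start of many housekeeping genes, were in 12 member windows (17.4%), against 5.67% and 2.88%. At least 1 of the 3 motifs was in 28 member windows (40.6%), against 20.2% of the table's and 9.15% of all windows. A match is only a run of letters, and binding was not measured here. The median GC content was 58.3% in member windows, 61.7% in the table's and 52.7% in all windows.

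Members often sat head to head with another gene. For 33 of 78 members (42.3%) another protein-coding gene began within 1000 bases on the opposite strand, against 1697 of 9313 protein-coding genes of the table (18.2%). A pair of members, Mrpl46 and Mrps11, faced each other in this way. Mrps12 faced Sars2, the mitochondrial seryl-tRNA synthetase, Mrpl36 faced Ndufs6, a subunit of respiratory complex I, and Mrpl43 faced Twnk, the mitochondrial DNA helicase. Mrps18b faced Ppp1r10, which encodes a regulator of protein phosphatase 1. In GENCODE, 26 members overlapped another protein-coding gene, 23 of them one on the opposite strand and 4 of them one on the same strand. No source used here gives whether reads were counted by strand, and the share of reads of those members is uncertain. Among the members described below these are Mrps6, Mrps11, Mrps18a, Mrps25, Mrps30, Mrpl14, Mrpl18, Mrpl19, Mrpl24, Mrpl47 and Mrpl49.

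The libraries differed in ways that touch every comparison. RPKM sums ran from 145050 to 321035, and the median of the changes of all tested genes was 1.36 at P1 and 1.48 at P3 against adult on the log2 scale, so a member that did not move in RPKM moved down against that median. The P3 replicate 1 library had higher RPKM than the other P3 libraries for 77 of 78 members and lay within or above the P1 range for 74. Its rank correlations across all genes (Spearman) were 0.959 to 0.97 with the P1 libraries and 0.903 to 0.957 with the other P3 libraries. P1 replicate 1 had correlations of 0.924 to 0.941 with the other P1 libraries and 0.908 to 0.97 with the P3 libraries. It was the lowest P1 library for 60 members, and adult replicate 4 was the highest adult library for 73. These counts, and those of P3 replicate 1, were made for members only. Adult replicate 4 and P3 replicate 1 also had the highest RPKM sum and the highest median gene of their groups. Adult replicates 1 to 4 and 5 to 7 formed separate sets by the step in which their RPKM values move. The step was 2 common units in the first set and 1 in the second and in the neonatal libraries. With each step counted as 1 read, the first set had 0.366 to 0.646 times the depth of adult replicate 5 and the second 0.978 to 1 times. The neonatal libraries had 0.551 to 0.792 times the depth of adult replicate 5. If the double step stands for 2 reads, the depth of the first set is understated here. For the 72 members whose read numbers could be recovered from these steps, the fewest reads in any library numbered 47 (Mrpl57, adult replicate 3) or more, with a median of 139 over those members.

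Markers of cell types moved with the groups in RPKM. The 16 cardiomyocyte markers had a median log2(RPKM + 0.5) of 9.97 to 10.7 in adult libraries, 7.30 to 8.66 at P1 and 7.98 in P3 replicate 1, and 5.33 to 6.35 in the other P3 libraries. The median of 10 endothelial markers was -0.36 to 4.43 in adult libraries, 4.17 to 5.43 at P1 and 5.84 to 7.24 at P3. The summed RPKM of 7 fibroblast markers ran from 4.87 to 78.3 in adult libraries, from 190 to 1513 at P1, where replicate 1 had the most, and from 425 to 853 at P3. Of the cardiomyocyte markers 10 were called lower than adult at P1 and 15 at P3 (4.32% and 9.16% of all tested genes). Of them 1 was called higher at P1, Myh7 (1.58). Of the endothelial markers 9 were called higher at P1 and 10 at P3, and of the fibroblast markers 6 and 6 (62.7% of all tested genes at each age). Measured from the median gene of each library, the endothelial median was 0.95 to 2.27 at P1, inside the adult range of -2.27 to 2.42. At P3 it was above that range. On that scale fibroblast medians were above their adult range at both ages, and cardiomyocyte medians below theirs. The summed RPKM of 5 mural cell markers ran from 32.9 to 123 in adult libraries, from 175 to 613 at P1 and from 545 to 892 at P3, while their median log2(RPKM + 0.5) was 0.25 to 4.55, 3.02 to 3.48 and 2.92 to 4.94. Of these, 2 were called higher at P1 (Acta2 and Mcam) and 3 at P3. Measured from the median gene, the mural medians lay inside the adult range at both ages. Rgs5 and Abcc9 had negative changes at P1 with an unadjusted p under 0.05 in limma. Of the markers listed, 10 of 13 endothelial, 7 of 11 fibroblast and 5 of 9 mural ones were in the table. None of the 12 immune or 8 erythroid markers was. No gene of the table was at or under 0.1 RPKM in any library, so a marker very low in 1 library may be missing. The absence of the immune and erythroid markers does not show whether such cells were present. The part of this shift in the member values was not tested, and in bulk RNA fewer cells of a type and less RNA per cell cannot be told apart.

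**Figure D1:**
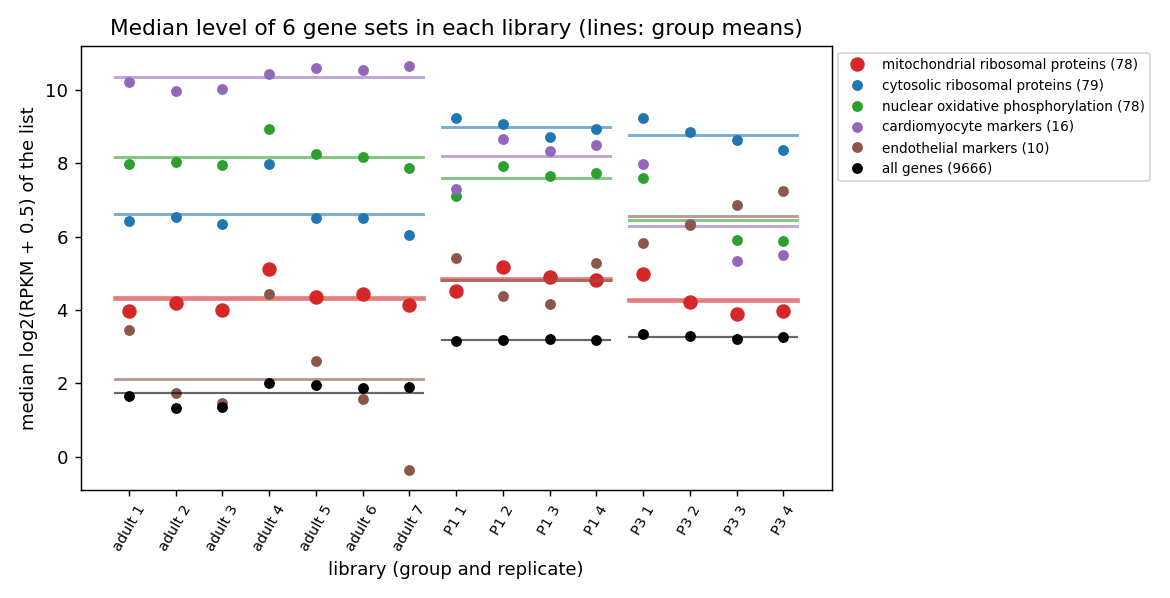
Median log2(RPKM + 0.5) of 6 gene sets (vertical axis) in each of the 15 libraries (horizontal axis), with the number of genes of each set in the legend; each point is 1 library and each line the mean of its group. The mitochondrial ribosomal protein genes stay between 3.89 and 5.18 in all libraries, while cardiomyocyte markers fall from 9.97 or more in adult libraries to 5.33 in the lowest P3 library.

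Across the 78 members, levels spread over a wide range in each group. Group mean RPKM ran from 2.52 to 235 in adult, 93.3-fold, from 4.61 to 161 at P1, 34.9-fold, and from 4.20 to 84.4 at P3, 20.1-fold. The median of the members' group means was 19.97 RPKM in adult, 29.5 at P1 and 20.1 at P3. Together the members made up 1.02% to 1.38% of the RPKM sum in adult libraries, 0.799% to 1.13% at P1 and 0.520% to 0.942% at P3. Within a library the median member was 1.36 to 1.99 above the median gene at P1, 0.66 to 1.64 above it at P3 and 2.23 to 3.12 above it in adult on the log2 scale, with no overlap between adult and either neonatal group.

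Mrpl42, a large-subunit protein with no bacterial counterpart, was the member with the highest mean level over the 3 groups. Its mean was 235 RPKM ± 54.5 (SD, n = 7) in adult, 144 ± 35.8 (SD, n = 4) at P1 and 64.0 ± 51.4 (SD, n = 4) at P3. Next came Mrpl12, Mrpl30 and Mrps21. Mrpl12 had means of 102 RPKM ± 42.3 in adult, 161 ± 54.6 at P1 and 84.4 ± 59.5 at P3, and was the highest member at P1 and P3. Mrpl30 had 117 RPKM ± 36.2, 101 ± 23.4 and 53.2 ± 27.0. Mrps21 had 92.1 RPKM ± 47.1, 73.4 ± 9.64 and 50.5 ± 18.6. In adult the mean ± SD of Mrpl42 did not overlap that of the next 3, which overlapped one another, and at P1 and P3 neighbours in this order overlapped. The lowest 3 were Mrpl17, Mrpl57 and Mrps25, with Mrpl17 at 2.52 RPKM ± 1.10 in adult, 4.61 ± 0.322 at P1 and 4.30 ± 0.657 at P3. The order of member levels was close between P1 and P3 (Spearman rho 0.947 over 78 genes) and less close between adult and P1 (0.767) or adult and P3 (0.732). These correlations are across genes, which are not independent replicates.

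**Figure D2:**
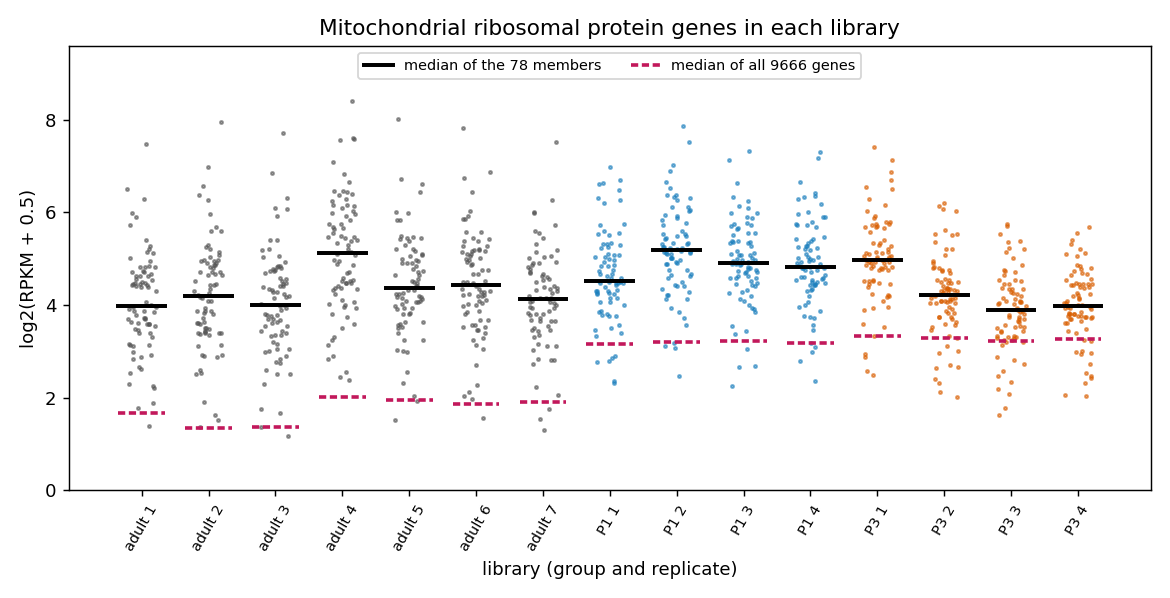
Log2(RPKM + 0.5) of each of the 78 members (points) in each of the 15 libraries (horizontal axis), with the median member (black line) and the median of all 9666 genes (dashed line). The gap between the 2 lines is 2.23 to 3.12 for adult and 0.66 to 1.99 for neonatal libraries, and adult replicate 4 and P3 replicate 1 stand above the rest of their groups.

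At P1, 15 members were called higher than in adult, where 62.7% of all tested genes were, and none was called lower, where 4.32% were. The median member change was 0.53 and the median of all tested genes 1.36. The member changes ran from -0.98 to 2.63, 66 of them positive and 12 negative, and 36 positive and 2 negative changes had an adjusted p under 0.05 whatever their size (76.6% and 6.87% of all tested genes). At an unadjusted p under 0.05 in limma, 39 were positive (77.1%) and 3 negative (7.24%). P1 and adult libraries did not overlap in RPKM for 15 members with P1 above (65.1% of all tested genes) and for 1 with P1 below (4.86%), Mrpl55. The share of members called higher was thus below that of all tested genes. Against adult replicates 1 to 4 alone, 17 members were called higher and 1 lower, and against adult replicates 5 to 7 alone, 15 and 0. Over all 9389 tested genes these counts were 6240 and 352, and 5361 and 487.

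Mrps6, a small-subunit protein with a bacterial counterpart, was the member with the largest P1 change. Its adult RPKM had a lowest value of 10.8, a median of 12.2 and a highest of 30.6, against 126, 101, 80.7 and 71.7 in P1 replicates 1 to 4. The groups did not overlap, and the change was 2.63 (SE 0.31, limma adjusted p = 3.4e-07). Its exact permutation p was 0.003, the least that 330 splits allow. The annotated Mrps6 gene (chr16:92058270-92112227, plus strand) overlaps Slc5a3, a sodium and myo-inositol transporter gene on the same strand, so how reads were shared between them is uncertain.

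The 3 paralogs related to a single bacterial protein of the small subunit all had positive changes at P1, and 1 of them was called. Mrps18b, which occupies its own place in the small subunit, had an adult RPKM from 7.78 to 22.4 with a median of 13.5, against 45.2, 76.6, 62.8 and 59.3 at P1. All P1 libraries were above all adult ones, and the change was 2.21 (SE 0.27, limma adjusted p = 4.4e-07). Mrps18c, which sits where the bacterial protein does, ran from 18.6 to 53.6 RPKM in adult with a median of 25.4, against 38.8, 53.9, 49.2 and 53.1 at P1. Its change of 0.79 (SE 0.25, limma adjusted p = 0.0078) was under the size needed for a call. Mrps18a, which belongs to the large subunit, ran from 21.7 to 83.5 RPKM in adult with a median of 32.2, against 46.7, 61.0, 53.5 and 50.8 at P1. Its change was 0.53 (SE 0.30, limma adjusted p = 0.10), and every P1 value lay inside the adult range. The difference between the paralogs' changes was not tested.

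Among large-subunit members, 8 of 51 were called higher. Mrpl52, which has no bacterial counterpart, ran from 15.4 to 71.2 RPKM in adult with a median of 21.8, against 99.7, 91.6, 70.5 and 85.2 at P1. The change was 1.72 (SE 0.32, limma adjusted p = 6.4e-05), and only adult replicate 4 reached the P1 range. Mrpl38, a protein of the central protuberance, ran from 6.95 to 18.4 RPKM in adult against 26.4, 44.3, 46.5 and 37.1 at P1, a change of 1.58. Mrpl20, one of the proteins that bind the large ribosomal RNA early in assembly, ran from 21.3 to 60.4 RPKM in adult against 89.3, 119, 75.0 and 80.8 at P1, a change of 1.52. Both had groups apart. Mrpl19 (1.48), Mrpl47 (1.39), Mrpl35 (1.05), Mrps30 (1.02) and Mrpl45 (1.02) completed the list. Mrps30 is a large-subunit protein in spite of its symbol, and Mrpl45 lies at the exit of the peptide tunnel, where the ribosome meets the inner membrane.

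Among small-subunit members, 7 of 26 were called higher. After Mrps6 and Mrps18b came Mrps22 (1.51), Mrps10 (1.40), Mrps5 (1.24), Mrps11 (1.05) and Mrps26 (1.01). Mrps22, a protein without bacterial counterpart in which human mutations cause cardiomyopathy, ran from 8.10 to 10.9 RPKM in adult, the narrowest adult range relative to its level among the 15 members called higher, against 20.6, 36.1, 31.0 and 27.3 at P1. The median change was 0.67 for small-subunit and 0.52 for large-subunit members. It was 0.51 for members with a bacterial counterpart, of which 8 of 47 were called, and 0.59 for those without, of which 7 of 30 were.

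The lowest changes at P1 belonged to large-subunit members. Mrpl55 ran from 25.7 to 70.2 RPKM in adult with a median of 31.0, against 13.5, 19.0, 18.8 and 17.8 at P1. All P1 libraries were below all adult ones, yet the change of -0.98 (SE 0.27, limma adjusted p = 0.0028) was short of the size for a call. Mrpl14, which lies on the face that meets the small subunit, had 17.3, 19.9, 19.5 and 19.3 RPKM at P1 against 19.6 to 77.4 in adult, a change of -0.82 (limma adjusted p = 0.011). Mrpl42 changed by -0.70 (limma adjusted p = 0.055) and Mrpl41 by -0.36 (limma adjusted p = 0.23). Mrps36, not a ribosomal subunit, had 40.0, 64.7, 46.7 and 63.6 RPKM at P1 against a median of 47.8 in adult, a change of 0.03.

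**Figure D3:**
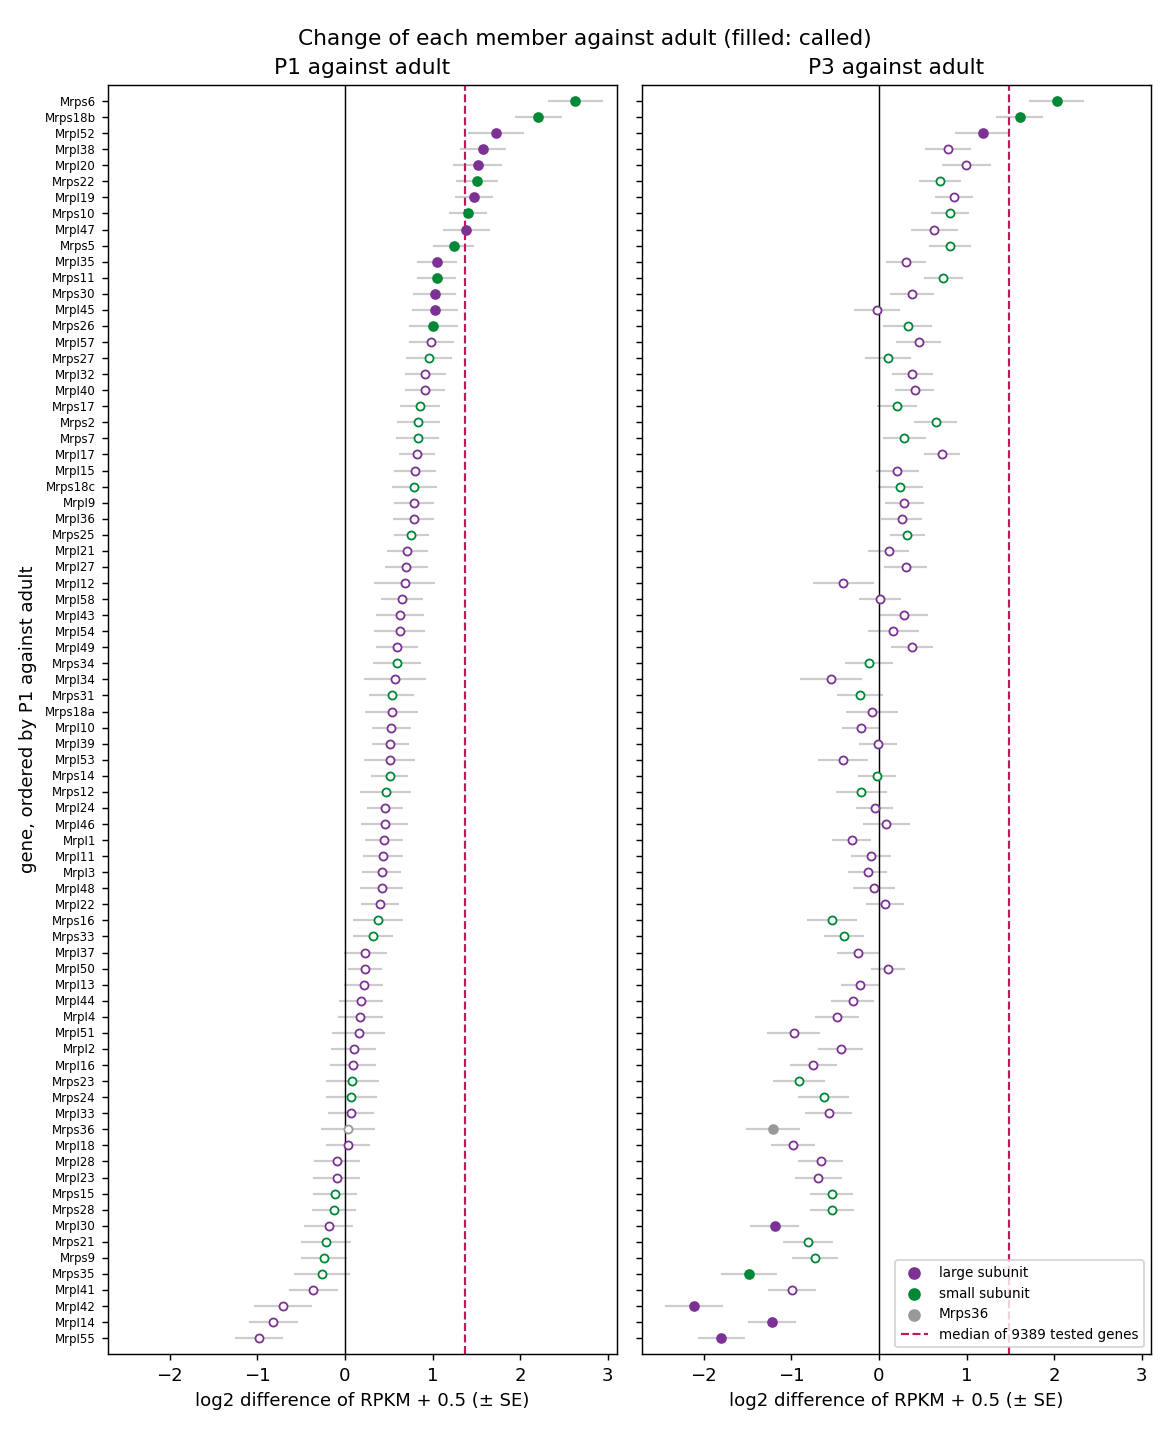
Change of each of the 78 members in log2(RPKM + 0.5) between P1 and adult (left) and between P3 and adult (right), with bars of 1 SE from limma; filled points were called, and the dashed line is the median of the 9389 tested genes. The dashed line stands at 1.36 on the left, with 9 members to its right, and at 1.48 on the right, with only Mrps6 and Mrps18b to its right.

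Set against the median gene of each library, the direction of most members turned over. With every library centred on its median gene, 7 members were above adult and 71 below at P1, with a median of -0.93. On that scale 1 member was called higher (13.5% of all tested genes), Mrps6 with a change of 1.17, and 34 were called lower (21.8%). Mrpl55 changed by -2.44 on the centred scale. At an equal RPKM sum for each library, 3 members were called higher (3868 of 9389 tested genes) and 4 lower (857), and the median member change was -0.16. So the direction of the median member at P1 depends on the scaling. Under every scaling tried, the P1 changes of Mrps6, Mrps18b, Mrps22, Mrpl19, Mrpl38 and Mrpl52 stayed positive. Those of Mrpl55, Mrpl14, Mrpl42 and Mrpl41 stayed negative.

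At P3, 3 members were called higher than in adult (62.7% of all tested genes) and 6 lower (9.16%). The median member change was -0.03, with 36 positive and 42 negative, while the median of all tested genes was 1.48. An adjusted p under 0.05 was reached by 13 positive (73.4% of all tested genes) and 16 negative changes (12.6%). P3 libraries lay all above the adult ones for 4 members (64.3% of all tested genes), Mrpl19, Mrps5, Mrps6 and Mrps18b, and all below for 2 (7.99%), Mrpl42 and Mrpl55. Against adult replicates 1 to 4 alone, 4 members were called higher and 7 lower, and against adult replicates 5 to 7 alone, 4 and 5. Over all 9389 tested genes these counts were 6131 and 780, and 5508 and 967. The comparison shares its adult libraries with that of P1.

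The members called higher at P3 were Mrps6, Mrps18b and Mrpl52. Mrps6 had 118, 67.0, 51.8 and 33.9 RPKM in P3 replicates 1 to 4, all above the adult maximum of 30.6, with a change of 2.03 (SE 0.31, limma adjusted p = 7.1e-06). Mrps18b had 65.3, 40.3, 31.6 and 28.5 RPKM at P3, again above every adult library, with a change of 1.61 (SE 0.27, limma adjusted p = 1.9e-05). Mrpl52 had 89.8, 64.9, 41.1 and 50.9 RPKM, a change of 1.18 (limma adjusted p = 0.0021), but adult replicate 4 at 71.2 lay within the P3 range. Without P3 replicate 1 the change of Mrpl52 was 0.98 and it was no longer called. Mrpl20 had 103, 69.7, 53.1 and 39.6 RPKM and a change just under 1 (limma adjusted p = 0.0028), so it was not called.

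The 6 members called lower at P3 comprised 4 large-subunit proteins, Mrpl42, Mrpl55, Mrpl14 and Mrpl30, the small-subunit protein Mrps35, and Mrps36. Mrpl42 had 141 RPKM in P3 replicate 1 and 46.2, 34.7 and 34.6 in the others, against 179 to 337 in adult, a change of -2.11 (SE 0.33, limma adjusted p = 8.2e-06, exact permutation p = 0.003). Its adult mean was 3.67 times its P3 mean. Mrpl55 had 17.6 RPKM in P3 replicate 1 and 7.30, 8.24 and 7.59 in the others, a change of -1.80 (SE 0.27, limma adjusted p = 5.6e-06). For these 2 every P3 library was below every adult one.

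Mrps35 had 31.3 RPKM in P3 replicate 1 and 9.31, 8.64 and 10.3 in the others, against 26.2 to 64.8 in adult, a change of -1.49 (SE 0.32, limma adjusted p = 0.00027). Mrpl14 had 21.5, 10.5, 12.1 and 14.8 RPKM, a change of -1.22 (limma adjusted p = 0.00047), and Mrpl30 had 93.3, 45.4, 37.3 and 36.7 RPKM, a change of -1.19 (limma adjusted p = 0.00065). Mrps36 had 51.3, 20.8, 12.5 and 17.3 RPKM against 38.4 to 88.3 in adult, a change of -1.21 (limma adjusted p = 0.0014). In each of these 4 only P3 replicate 1 reached the adult range. Without that library 13 members were called lower (10.3% of all tested genes) and 2 higher (61.8%), and the median member change was -0.25. With each library centred on its median gene, 65 members were called lower than adult at P3 (27.2%) and none higher (18.9%). Without P3 replicate 3, 5 members were called higher (5967 of 9389 tested genes) and 5 lower (794).

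**Figure D4:**
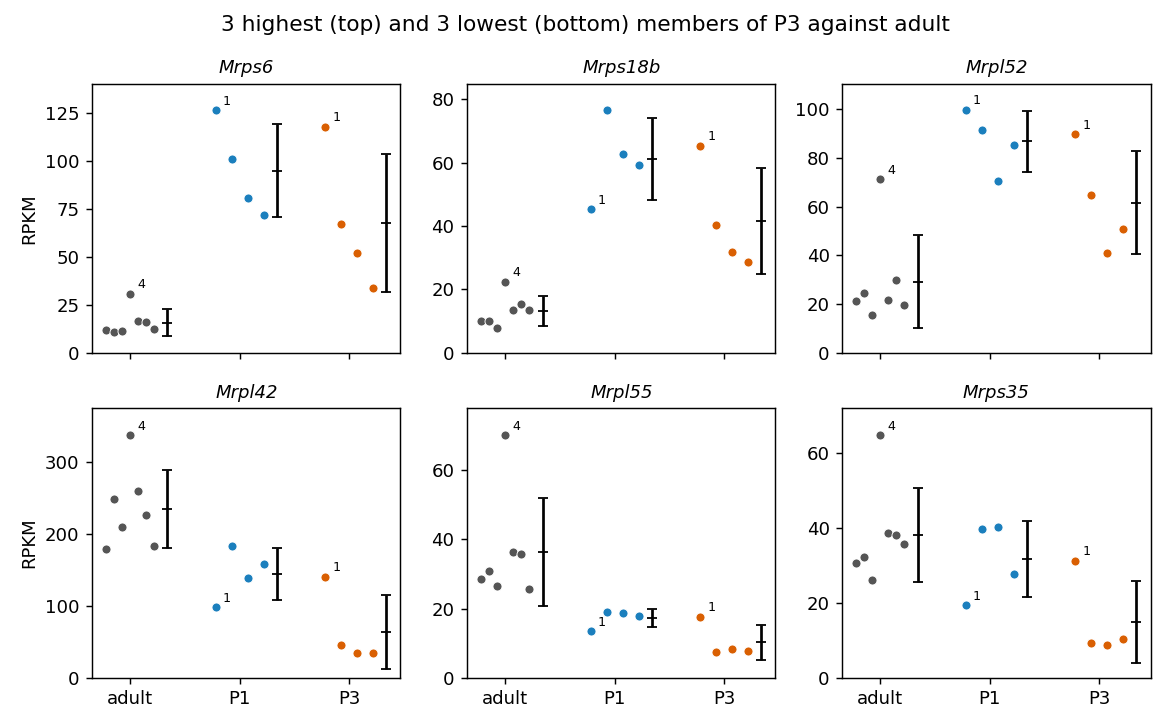
RPKM in every library (points; horizontal axis by group) of the 3 members with the highest (top) and the 3 with the lowest (bottom) P3 change against adult, with the group mean and SD as bars; digits mark adult replicate 4 and replicate 1 of P1 and P3. Mrps6 and Mrps18b have every neonatal library above every adult one, and in the bottom row P3 replicate 1 lies well above the other 3 P3 libraries.

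Proteins of the stalk and of the decoding site were followed whatever their change. Mrpl10, Mrpl11 and Mrpl12 form the stalk that recruits translation factors. Mrpl12, several copies of which hang from the stalk and which also binds mitochondrial RNA polymerase, had 104, 235, 160 and 145 RPKM at P1 and 171, 73.7, 46.1 and 46.5 at P3, against 64.3 to 192 in adult, and was not called in any comparison (0.68 at P1 and -0.41 at P3 against adult). Mrpl10 had means of 15.7 RPKM ± 4.24 in adult, 22.4 ± 2.91 at P1 and 13.5 ± 3.49 at P3, and Mrpl11 had 9.73 ± 3.08, 13.0 ± 1.85 and 9.24 ± 3.70. Mrps12, a protein of the decoding site, had 19.8 RPKM ± 10.1, 25.3 ± 2.63 and 16.7 ± 6.99. None of these 4 was called, and all had their highest mean at P1.

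From P1 to P3 every member had a negative change. The median was -0.59 and the range -1.40 to -0.10, against a median of 0.09 over all tested genes. Of the members 6 were called lower (5.31% of all tested genes) and none higher (1.40%). At an unadjusted p under 0.05 in limma, 39 members were lower (14.1% of all tested genes) and 0 higher (13.5%). P3 libraries lay all below P1 libraries for 4 members (2.53%), Mrpl10, Mrpl23, Mrpl24 and Mrpl57, and all above for none (10.7%). The smallest changes were those of Mrpl17 (-0.10), Mrpl50 (-0.12), Mrps2 (-0.18) and Mrpl49 (-0.22).

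The members called lower were Mrpl42 at -1.40, Mrps36 at -1.24, Mrps35 at -1.22, Mrpl51 at -1.13, Mrpl45 at -1.05 and Mrpl18 at -1.01. Their limma adjusted p ran from 0.028 for Mrpl42 to 0.046 for Mrpl51. By the exact permutation test, whose smallest p is 0.029 with 70 splits, none of the 6 passed, with Mrpl51 at p = 0.057 and the other 5 at p = 0.086. Mrpl45 had 21.8, 39.6, 33.1 and 25.6 RPKM at P1 and 27.4, 15.9, 9.47 and 9.03 at P3, so P3 replicate 1 lay within the P1 range. Mrpl18, which in the large subunit contacts the transfer RNA of the central protuberance, had 53.7, 82.9, 68.2 and 59.0 RPKM at P1 and 59.98, 29.5, 22.4 and 26.7 at P3.

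This comparison turned on single libraries. P3 replicates 2 to 4 were below every P1 library for 69 of 78 members. That count leaves out P3 replicate 1 and was not made over all tested genes, so it does not set the members apart. Without P3 replicate 1, 20 members were called lower (9.47% of all tested genes), including all 6 above, and none higher (3.2%). Without P1 replicate 1, 12 were called lower (801 of 9389 tested genes). Without any one of P1 replicates 2, 3 or 4, or of P3 replicates 2, 3 or 4, limma called 0 members lower, with 18 to 28 at an unadjusted p under 0.05. Over all 9389 tested genes, 60 to 146 were called lower in these fits, against 499 with all libraries. At an unadjusted p under 0.05 in limma, 938 to 1141 of all tested genes were negative. Lower calls were thus lost across the table and not only among members. With only P1 and P3 in the fit limma also called 0 members lower (86 of all tested genes), with 44 at an unadjusted p under 0.05 (1333 of all tested genes). Without adult replicate 4, 10 members were called lower (565 of all tested genes). With each library centred on its median gene, 12 members were called lower (7.53%) and none higher (1.19%). Over the 4 other scalings tried the count of lower calls ran from 3 at an equal RPKM sum (448 of all tested genes) to 11 with quantile normalization (556).

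**Figure D5:**
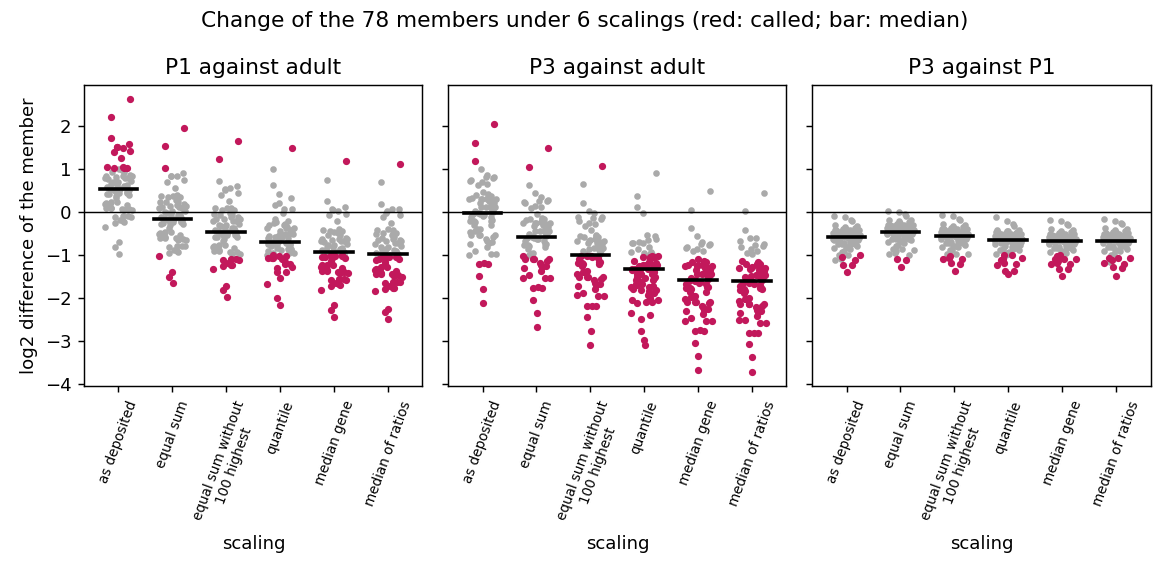
Change of the 78 members in log2(RPKM + 0.5) in each of the 3 comparisons (panels) under 6 scalings of the libraries (horizontal axis); red points were called, and the bar is the median member. The median member of P1 against adult moves from 0.53 as deposited to -0.98 with median-of-ratios scaling, and that of P3 against P1 stays between -0.46 and -0.69.

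Other parts of the mitochondrial translation system were counted by lists from textbook knowledge. Of all tested genes, 62.7% were called higher at each age against adult, and 4.32% were called lower at P1 and 9.16% at P3. From P1 to P3, 1.40% were called higher and 5.31% lower. Of 5 subunits of this ribosome that carry other symbols, 0 were called against adult at either age by limma, with 2 higher at P1 and 1 lower at P3 at an unadjusted p under 0.05, and 1 was called lower from P1 to P3. Of 26 assembly factors, 8 were called higher at P1 and 6 at P3, with 0 and 2 lower. Dhx30, an RNA helicase of mitochondrial RNA granules, had a change of 1.88 at P1 and 1.73 at P3 (limma adjusted p = 5.4e-07 and 1.3e-06). Tfb1m, the methyltransferase that modifies the small ribosomal RNA, had -0.65 and -1.73 (limma adjusted p = 0.028 and 5.6e-06), and only the second was called. From P1 to P3, 1 assembly factor was called lower, Tfb1m (-1.08), and 0 higher.

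Of 12 translation factors, 0 were called at P1 by limma, with 5 higher and 1 lower at an unadjusted p under 0.05, and 1 was called higher and 3 lower at P3. From P1 to P3, 2 translation factors were called lower, Gfm1 (-1.08) and Taco1 (-1.15), and 0 higher. Taco1, the activator of cytochrome oxidase subunit I translation, changed by -1.97 at P3 (limma adjusted p = 6.7e-06), and Mtfmt, which formylates the initiator methionine, by 1.31 (limma adjusted p = 2.3e-06). Of 17 mitochondrial aminoacyl-tRNA synthetases, which charge the transfer RNAs, 3 were called higher at both ages (Lars2, Mars2 and Yars2) and 2 lower at P3 (Fars2 and Cars2). Lars2, the leucine enzyme, changed by 2.80 at P1 and 2.30 at P3 (limma adjusted p = 1.2e-05 and 1.0e-04). Of 17 genes of mitochondrial transcription and RNA stability, 5 were called higher at P1 and 4 at P3, with 2 lower at P3. Fastkd5, a mitochondrial RNA-binding protein of the FASTK family, changed by 1.61 and 1.44 (limma adjusted p = 4.6e-07 and 1.6e-06). No synthetase and no gene of transcription and RNA stability was called from P1 to P3. At an unadjusted p under 0.05 in limma, 7 and 4 of them were lower and 0 higher.

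In median change against adult the members lay between the cytosolic ribosomal proteins and the respiratory chain. Of 79 cytosolic ribosomal protein genes, 78 were called higher than adult at P1 and 78 at P3, with median changes of 2.28 and 2.03. Of 78 nuclear genes of oxidative phosphorylation subunits, 10 were called lower at P1 and 74 at P3, with median changes of -0.63 and -1.76, and 2 (Cox6a1 and Cox8a) were called higher at each age. From P1 to P3, 35 of them were called lower (5.31% of all tested genes), with a median of -1.20. Both lists share the adult libraries with the members. Within a library, the median cytosolic ribosomal protein gene was 1.90 to 2.87 above the median member in adult, 3.83 to 4.73 at P1 and 4.27 to 4.75 at P3 on the log2 scale. The median oxidative phosphorylation gene was 3.74 to 4.03 above the median member in adult, 2.61 to 2.92 at P1, 2.63 in P3 replicate 1 and 1.92 to 2.14 in the other P3 libraries. Both differences are taken within a library, where a scaling factor cancels apart from the 0.5 added to RPKM, and adult and neonatal libraries did not overlap in either. The difference between large- and small-subunit medians, 0.12 to 0.63 in adult, -0.04 to 0.15 at P1 and 0.05 to 0.31 at P3, overlapped between the groups.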

How the data were processed

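The authors deposited 1 table of RPKM with 1 column for each of the 15 libraries. HISAT2, Partek 6.6 and the build mm10 are named in the submitters' processing notes, without a role. Annotation, counting options and strand were not given in the sources used here. The lowest RPKM in the table is 0.1001. RPKM values step by whole reads. Ratios between libraries gave their relative depth, with 1 step taken as 1 read, and read numbers came out whole for 72 of 78 members (relative tolerance 2e-05) and for 0 when values were shifted at random by up to 1 percent.

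From RPKM, genes with at least 1 in at least 4 libraries were fitted on log2(RPKM + 0.5), which understates the change of low genes, with limma 3.58.1 and its trended eBayes step, run in R 4.3.3, using all 15 libraries, 1 coefficient for each group and Benjamini-Hochberg adjustment over 9389 genes. Single genes were also compared by two-sided exact permutation tests of mean log2(RPKM + 0.5).

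The members, the lists of other genes and markers, and the comparisons were chosen with earlier results of these data known. Named by rule were, for each comparison, the 4 highest and 4 lowest members and all called ones, the 4 most and 3 least abundant, and members of a stated role (stalk, decoding site, the Mrps18 paralogs, Mrpl45 and Mrps36). Examples from lists are those with the largest change at P3. Members whose groups did not overlap, and those with head-to-head partners, were named after their values were seen. Alternatives were 5 scalings, other pseudocounts, no filter, each adult set alone, each library left out, a replicate block, eBayes without trend and a fit of only 2 groups. Leaving out P1 replicate 1 and P3 replicate 1 together was chosen after seeing the data. Gene positions come from GENCODE and promoters from RefSeq, both on GRCm38.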

Additional observations from a re-analysis of the deposited data

Results flagged for a closer look

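In 96 groups of libraries tested, over 31 named genes and the median member, 13 had 1 library far from the others of its group by Dixon's test. Chance gives this in about 1 in 20 independent groups. The groups here reuse the same 15 libraries, and many genes were named for their changes, so the 13 cannot be set against that rate. Of the 13, 10 were adult replicate 4 at the top of the adult group. It held 4.96 RPKM of Mrpl17 (others 1.73 to 2.44), 100.2 of Mrpl18 (52.2 to 65.0), 21.7 of Mrpl47 (11.4 to 14.3), 113 of Mrpl51 (41.6 to 57.9), 70.2 of Mrpl55 (25.7 to 36.5), 53.6 of Mrps18c (18.6 to 28.6), 25.7 of Mrps26 (7.43 to 11.4), 64.8 of Mrps35 (26.2 to 38.8) and 30.6 of Mrps6 (10.8 to 16.4), and its median member stood at a log2 value of 5.12. With each RPKM step counted as 1 read, adult replicate 4 also had the least depth of the 15 libraries, 0.366 times that of adult replicate 5. That rank depends on the counting, because the step was double in adult replicates 1 to 4. The other 3 were P3 replicate 1 at the top of the P3 group, with 17.6 RPKM of Mrpl55 (7.30 to 8.24), 54.9 of Mrps18c (27.4 to 28.5) and 31.3 of Mrps35 (8.64 to 10.3). The same library had the highest cardiomyocyte markers of P3, and their part in these values was not tested.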

How the results depend on the processing

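Calls of P1 and P3 against adult kept their counts within 1.5 times with other pseudocounts, no filter on low values, no trend or only 2 groups in the fit. With each library centred on its median gene, 1 member was called higher and 34 lower at P1 (median -0.93), 0 and 65 at P3 (median -1.59), and 12 lower from P1 to P3. Over all 9389 tested genes these counts were 1270 and 2047, 1779 and 2556, and 707. The sign turned over for 59 members at P1 and 34 at P3, among the named members at P1 for Mrpl12 (-0.78), Mrpl35 (-0.41), Mrpl45 (-0.44), Mrpl47 (-0.072), Mrps10 (-0.057), Mrps11 (-0.41), Mrps18a (-0.93), Mrps18c (-0.67), Mrps26 (-0.45), Mrps30 (-0.43), Mrps36 (-1.43) and Mrps5 (-0.22), and at P3 for Mrpl20 (-0.55), Mrpl52 (-0.37) and Mrps18c (-1.31). With median-of-ratios scaling, 1 member was called higher and 35 lower at P1 (median -0.98), 0 and 64 at P3 (median -1.61), and 9 lower from P1 to P3. Over all tested genes these counts were 1562 and 1856, 2141 and 2335, and 593. The sign turned over for 60 members at P1 and 34 at P3, among the named members at P1 for Mrpl12 (-0.86), Mrpl20 (-0.0157), Mrpl35 (-0.42), Mrpl45 (-0.49), Mrpl47 (-0.13), Mrps10 (-0.084), Mrps11 (-0.43), Mrps18a (-0.997), Mrps18c (-0.73), Mrps26 (-0.49), Mrps30 (-0.48), Mrps36 (-1.499) and Mrps5 (-0.266), and at P3 for Mrpl20 (-0.61), Mrpl52 (-0.43) and Mrps18c (-1.36). With quantile normalization, 1 member was called higher and 19 lower at P1 (median -0.71), 0 and 58 at P3 (median -1.33), and 11 lower from P1 to P3. Over all tested genes these counts were 1639 and 1697, 2342 and 2174, and 556. The sign turned over for 57 members at P1 and 33 at P3, among the named members at P1 for Mrpl12 (-0.17), Mrpl35 (-0.31), Mrpl45 (-0.23), Mrps11 (-0.30), Mrps18a (-0.58), Mrps18c (-0.35), Mrps26 (-0.28), Mrps30 (-0.22), Mrps36 (-1.03) and Mrps5 (-0.0286), and at P3 for Mrpl20 (-0.0384) and Mrps18c (-0.94). At an equal RPKM sum without the 100 highest genes, 2 members were called higher and 12 lower at P1 (median -0.46), 1 and 39 at P3 (median -0.998), and 7 lower from P1 to P3. Over all tested genes these counts were 2908 and 1148 at P1, and 3619 and 1610 at P3. From P1 to P3 the all-gene count of lower calls lay between 448 (equal RPKM sum) and 556 (quantile normalization). The sign turned over for 50 members at P1 and 32 at P3, among the named members at P1 for Mrpl12 (-0.33), Mrps18a (-0.47), Mrps18c (-0.21) and Mrps36 (-0.97), and at P3 for Mrps18c (-0.73). At an equal RPKM sum, 3 members were called higher and 4 lower at P1 (median -0.16), 2 and 22 at P3 (median -0.59), and 3 lower from P1 to P3. Over all tested genes these counts were 3868 and 857, 4685 and 1236, and 448. The sign turned over for 36 members at P1 and 23 at P3 and 2 from P1 to P3, among the named members at P1 for Mrpl12 (-0.0165), Mrps18a (-0.16) and Mrps36 (-0.66), and at P3 for Mrps18c (-0.31), and from P1 to P3 for Mrpl17 (0.019) and Mrpl50 (0.0042). The cause was not tested. Against adult replicates 1 to 4 alone, 1 member was called lower at P1 (352 of all tested genes). The labels do not say whether replicate numbers pair the libraries. Deviations of same-numbered libraries from their group means had correlations of -0.506, -0.047, -0.252 and 0.371 between P3 and P1. They were 0.279, 0.124, 0.078 and -0.017 between P1 and adult, and -0.42, -0.071, -0.053 and 0.011 between P3 and adult. These values cannot settle pairing. The replicate block gave 17 members higher and 1 lower at P1, 4 and 7 at P3, and 0 lower from P1 to P3 (22 at an unadjusted p under 0.05 in limma). Over all tested genes these calls numbered 6248 and 342, 6136 and 775, and 107. With only P1 and P3 in the fit 0 members were lower (86 of all tested genes). Without P1 replicate 1 and P3 replicate 1 together, 13 members were lower at P3 against adult (971 of all tested genes) and 27 lower from P1 to P3 (1090). Leaving out 1 library at a time gave 10 to 18 members higher and 0 to 1 lower at P1 (medians 0.46 to 0.66), 2 to 5 higher and 5 to 13 lower at P3 (medians -0.25 to 0.088), and 0 to 20 lower from P1 to P3 (medians -0.82 to -0.49). Over all tested genes these counts were 5718 to 6027 and 353 to 445, 5779 to 5987 and 794 to 971, and 60 to 889. The change of Mrps36 at P1 ran from -0.064 to 0.16 in these fits and that of Mrps18a at P3 from -0.30 to 0.12. Libraries of unstated animal origin, a table without genes at or under 0.1 RPKM and 2 adult sets with unlike steps in RPKM limit all comparisons.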
